A study of Mus musculus with 15 samples.

Results

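Transcripts of 100 mouse olfactory receptor genes other than Olfr2 were examined in macrophages sorted from aortas. The genes were the most widely detected of 1125 protein-coding receptor genes whose symbol is Olfr followed by a number, in a table of 47729 features. They were chosen by their measured counts, ranked by the number of the 15 deposited columns in which they held 5 or more counts, with ties ordered by mean CPM (counts per 1000000 of a column's total). Detection and levels are therefore given as a description. The labels of the columns were not used in the ranking.

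The libraries labelled Olfr2+ and those labelled Olfr2- were F4/80+ CD64+ macrophages of Apoe-/- mice, which lack apolipoprotein E, after 4 weeks of a high fat diet, so both labels share the deletion and the diet. The genotype is written "Apoe dko mice" in part of the labels. Each sort held 100 to 200 cells and was a technical replicate from the pooled aortas of 4 female mice. Its cDNA was amplified by the Smart-Seq2 method, in 18 cycles of PCR, before 9 further cycles on the library. The Olfr2+ label covered 10 columns, of samples numbered 2, 3 and 4, and the Olfr2- label 5 columns, of samples numbered 1, 3 and 4. Values by sample are given in this order of numbers. No label ties a numbered sample to its own animals, and a p-value here therefore reflects the spread among these sorts alone, which may be technical.

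Olfactory receptors are G protein-coupled receptors that bind odorants, and they form the largest gene family of the mouse. In the nose each sensory neuron transcribes a single receptor gene, from a single allele, and the chosen receptor signals through a stimulatory G protein, a cyclase and a cyclic nucleotide-gated channel. Class I receptors resemble those of fish, and class II receptors are the larger, terrestrial class. Some receptors have also been described outside the nose, among them Olfr2, a receptor for octanal, and Olfr78, a receptor for short-chain fatty acids found in blood vessels and the carotid body.

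The columns differed in depth in a way that the labels only partly match. At a division of 60 M counts (M, 1000000), 7 deeper columns, all 4 of Olfr2+ sample 2 and columns 3A, 3B and 3C, had totals of 76.0 to 95.6 M. The 8 shallower columns, which are Olfr2+ 3D, 4A and 4B with all 5 of the Olfr2- label, had 29.9 to 53.2 M. The share of counts in protein-coding genes was 94.6 to 97.46% (deeper Olfr2+), 78.5 to 80.4% (shallower Olfr2+) and 79.6 to 85.6% (Olfr2-). Features with 5 or more counts numbered 12883 to 18250, 19410 to 23942 and 19557 to 30868 in the same order. Olfr2 itself, with 1, 9 and 8 counts in the Olfr2+ samples against 76, 34 and 35 in the Olfr2- samples, ran against the labels. Each direction given is for that reason between libraries labelled Olfr2+ and libraries labelled Olfr2-, whatever their cells carried.

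Detection of the 100 receptors was sparse. Olfr458 reached 5 counts in 11 columns, Olfr56 in 9, and 3 receptors did so in 8. A further 4 reached it in 7 columns, 18 in 6, 52 in 5 and 21 in 4. The ranking ended inside the group with 4 columns, where 96 more receptor genes stood just outside. The last members were Olfr1260 (mean 0.203 CPM over the 15 columns), Olfr180 (0.2004), Olfr441 (0.1999), Olfr175-ps1 (0.194) and Olfr50 (0.191). The next genes in the ranking were Olfr46 (0.188), Olfr628 (0.186), Olfr1026 (0.184), Olfr459 (0.1799) and Olfr558 (0.1798), all in 4 columns too. "Widely detected" is thus relative, and 35 receptor genes had no count in any column. Of the 1500 pairs of a receptor and a column, 683 held no count, 293 held 1 to 4 counts, and 524 held 5 or more, 9 of them over 100. A count of 0 allows a level of up to 0.0314 CPM in the deepest column and 0.100 CPM in the shallowest, from 3 counts of the total. Such limits cover counting error only, since PCR reads without molecular identifiers are not independent molecules.

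The receptors were detected least in the deepest columns. In the deeper Olfr2+ columns (2A, 2B, 2C, 2D, 3A, 3B and 3C), 10, 4, 25, 3, 5, 2 and 2 of the 100 receptors reached 5 counts. In the shallower Olfr2+ columns, 58 did so in 3D, 30 in 4A and 42 in 4B. In Olfr2- columns 1A, 3A, 3B, 4A and 4B the numbers were 90, 27, 82, 67 and 77. Column 3A of the Olfr2- label was thus below all 3 shallower Olfr2+ columns, and the other Olfr2- columns were above every Olfr2+ column. The 7 columns with the most reads held the fewest receptors. By receptor, 8 reached 5 counts in no Olfr2+ column and 60 in none of the deeper Olfr2+ columns, while 9 did so in every Olfr2- column and 48 in at least 4 of the 5.

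**Figure D1:**
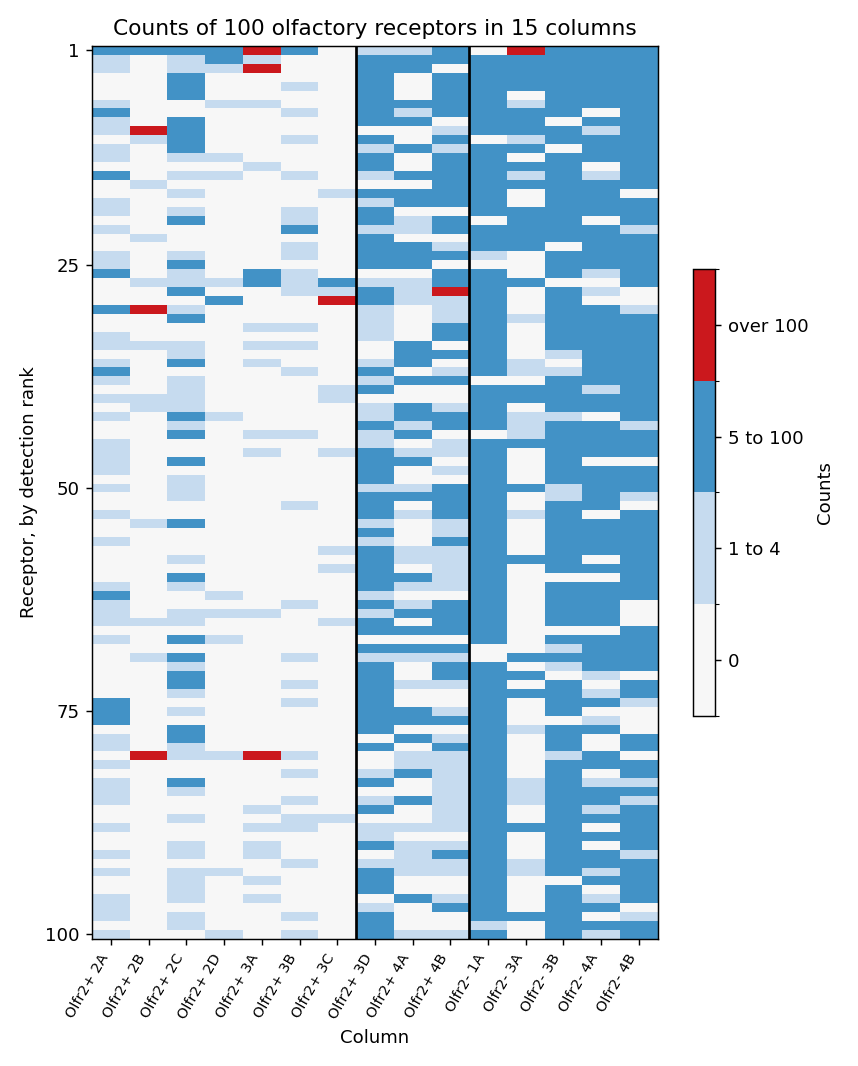
Counts of the 100 receptors (rows, by rank of detection) in the 15 columns, in 4 classes of count; black lines part the deeper Olfr2+ columns, the shallower Olfr2+ columns and the Olfr2- columns. The 7 deeper Olfr2+ columns are mostly empty, and the 9 red cells are the receptor-column pairs with over 100 counts.

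Columns that repeat a sample detected only partly the same receptors. Olfr2+ columns 4A and 4B shared 14 receptors, which was 46.7% of the 30 in 4A and 33.3% of the 42 in 4B. Olfr2+ 3C and 3D carry the same library name and had 1 receptor in common. Library name here means a name that columns can share, while the labels also give each column a library name of its own. Olfr2- columns 4A and 4B shared 52, which was 77.6% of the 67 in 4A and 67.5% of the 77 in 4B. Olfr2- columns 3A and 3B shared 21, which was 77.8% of the 27 in 3A and 25.6% of the 82 in 3B. Columns of different samples overlapped as much: Olfr2- columns 1A and 4B shared 67 receptors, which was 74.4% of the 90 in 1A and 87.0% of the 77 in 4B.

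Summed over the 100 receptors, the level was lower in the libraries labelled Olfr2+. The sums were 4.59, 14.15 and 19.9 CPM in the Olfr2+ samples, against 75.3, 115.3 and 40.9 CPM in the Olfr2- samples, and the labels did not overlap. The means were 12.9 ± 7.71 CPM for Olfr2+ and 77.2 ± 37.2 CPM for Olfr2- (SD, n = 3 each), so the mean for Olfr2- was 5.998 times that for Olfr2+. Few receptors carried much of these sums. Without the 7 receptors that exceeded 100 counts in some column, the other 93 summed to 4.94 ± 5.17 CPM in Olfr2+ and 44.7 ± 22.4 CPM in Olfr2-, so the mean for Olfr2- was 9.04 times that for Olfr2+. Of the 7, only Olfr458 exceeded 100 counts in an Olfr2- column, and a cut in counts is met at a lower CPM in deeper columns. The change in the ratio therefore depends on this cut and is a description. With 1 sample left out, the ratio for the 93 ran from 6.55 (without Olfr2- sample 1) to 22.4 (without Olfr2+ sample 4). In the latter case the 93 averaged 1.998 CPM in Olfr2+, and the sample left out held shallower columns only. For all 100 receptors the ratio ran from 4.5 (without Olfr2- sample 3) to 8.23 (without Olfr2+ sample 4). The median receptor stood at 0.011, 0.022 and 0.096 CPM in the Olfr2+ samples, against 0.640, 0.229 and 0.379 CPM in the Olfr2- samples.

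The receptors' level differed with the depth of the columns as well as with the label. The 93 receptors summed to 0.115 to 2.78 CPM in the deeper Olfr2+ columns, to 9.55 to 18.9 CPM in the shallower Olfr2+ columns, and to 4.98 to 69.3 CPM in the Olfr2- columns. All 3 shallower Olfr2+ columns were therefore above all 7 deeper ones. Among columns of like depth, 4 of the 5 Olfr2- columns (69.3, 59.8, 28.4 and 53.6 CPM in 1A, 3B, 4A and 4B) were above all 3 shallower Olfr2+ columns, and column 3A was below them. In the same columns the 10 fibroblast markers summed to 32330 to 42060 CPM in the deeper Olfr2+ columns, 2274 to 5181 CPM in the shallower Olfr2+ columns and 2255 to 4045 CPM in the Olfr2- columns. The 10 macrophage markers summed to 7467 to 14690, 2432 to 3339 and 1568 to 8649 CPM in that order, and the 7 B cell markers to 83.7 to 4401, 10360 to 15320 and 2415 to 12660 CPM. The 5 neutrophil markers summed to 133.3 to 447.1, 634.8 to 683.7 and 180.3 to 722.7 CPM in that order, and the 37 mitochondrially encoded genes to 25300 to 54310, 75140 to 122500 and 72610 to 103400 CPM. The 5 smooth muscle markers summed to 0.621 to 137.9, 1.81 to 2.34 and 2.52 to 13.1 CPM. For the 5 endothelial markers the sums were 1.19 to 740.5, 12.15 to 53.65 and 32.4 to 211.4 CPM. For the 6 T and NK cell markers they were 0.399 to 18.6, 3.95 to 98.5 and 20.1 to 278 CPM. Members of a list could differ. The ribosomal RNA mt-Rnr2 was at 17420, 24790 and 61580 CPM in the Olfr2+ samples, against 81420, 51950 and 73850 CPM in the Olfr2- samples. The messenger mt-Cytb was at 9004, 9528 and 1477 CPM, against 625.4, 4856 and 2455 CPM. Ighm, the most abundant B cell marker in every sample, was at 160.4, 2832 and 13650 CPM, against 12530, 5840 and 2216 CPM. Cd79b was at 54.8, 3.0 and 6.8 CPM, against 0.66, 20.7 and 4.2 CPM. Over all columns edgeR called 10 of 10 fibroblast, 3 of 10 macrophage and 0 of 7 B cell markers higher in the libraries labelled Olfr2+, against 1.12% of all genes tested. In the shallower columns it called 0 of each list, where it called 0% of all genes tested in either direction. Their part in the receptors' levels was not tested, and in bulk samples fewer cells of a type and less RNA per cell cannot be told apart.

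**Figure D2:**
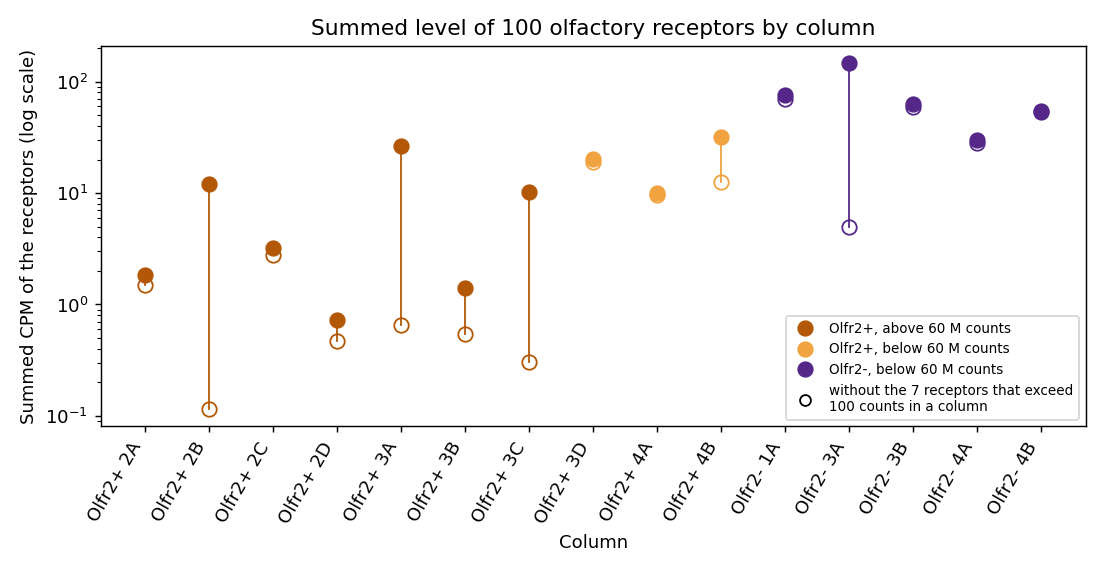
Summed CPM of the receptors in each column on a log scale, for all 100 (filled) and for the 93 that never exceeded 100 counts (open), with a line joining both values. The filled and open points lie far apart in Olfr2+ columns 2B, 3A and 3C and in Olfr2- column 3A, where a few receptors made up most of the sum.

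Single columns set the level of the most abundant receptors. The highest column held a median of 39.5% of a receptor's CPM summed over the columns, with a range of 23.7 to 94.2%, and it held over 50% for 25 receptors. It was labelled Olfr2+ for 11 receptors, 6 of them in a deeper column, and Olfr2- for 89. Olfr458 had 422 counts (4.93 CPM) in Olfr2+ column 3A and 7499 counts (140.9 CPM) in Olfr2- column 3A. Olfr71 had 1411 counts (16.5 CPM) in Olfr2+ column 3A. Olfr1034 had 753 counts (9.91 CPM) in Olfr2+ column 3C. Peaks of this kind were few. The highest column exceeded the next by more than 10 times for 3 of the 100 receptors, Olfr458, Olfr71 and Olfr921, and by 9.01 times for Olfr1034. Olfr921 had 567 counts (18.97 CPM) in Olfr2+ column 4B. Olfr90 had 469 counts (4.91 CPM) and Olfr433 448 counts (4.69 CPM) in Olfr2+ column 2B. Olfr920 had 394 counts (4.61 CPM) in Olfr2+ column 3A and 186 counts (1.95 CPM) in 2B. High counts of different receptors thus met in the same few columns. In the other column with the same library name, each of these receptors had at most 63 counts.

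The 10 receptors detected in the most columns were Olfr458, Olfr56, Olfr71, Olfr701, Olfr536, Olfr523, Olfr875, Olfr432, Olfr1155 and Olfr433, and by their Mor names all belonged to class II. Olfr458 had 95, 489 and 9 counts in the Olfr2+ samples, against 0, 7506 and 48 counts in the Olfr2- samples. Its labels overlapped, and its log2 fold change (Olfr2+ over Olfr2-) of -4.36 (SE 2.03) was 2.45 without Olfr2- sample 3. Olfr56 had 34, 35 and 13 counts in the Olfr2+ samples (0.093, 0.128 and 0.193 CPM), against 50, 31 and 21 counts in the Olfr2- samples (1.64, 0.364 and 0.284 CPM). In CPM, the labels of Olfr56 did not overlap, and its log2 fold change was -1.27 (SE 1.18), but 0.57 (SE 1.03) in the shallower columns. An exon of the annotated Olfr56 gene overlaps Ifi47, an interferon-inducible GTPase, so its counts are uncertain.

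Olfr71 had 7, 1438 and 12 counts in the Olfr2+ samples, against 30, 29 and 33 counts in the Olfr2- samples. Its log2 fold change of 2.76 (SE 1.66) was -1.54 without Olfr2+ sample 3. Olfr701 had 10, 17 and 8 counts in the Olfr2+ samples (0.027, 0.062 and 0.119 CPM), against 48, 30 and 65 in the Olfr2- samples (1.57, 0.353 and 0.879 CPM), with no overlap in CPM. Olfr536 had 8, 12 and 8 counts (0.022, 0.044 and 0.119 CPM) in the Olfr2+ samples, against 22, 44 and 71 (0.722, 0.517 and 0.961 CPM) in the Olfr2- samples, again with no overlap. Olfr523 had 9, 8 and 5 counts in the Olfr2+ samples and 51, 16 and 55 in the Olfr2- samples. The log2 fold changes of Olfr701, Olfr536 and Olfr523 were -2.68 (SE 1.24), -2.61 (SE 1.23) and -3.21 (SE 1.29) over all columns. In the shallower columns the same values were -0.72 (SE 1.05), -0.95 (SE 1.08) and -1.57 (SE 1.20).

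The next receptors of the ranking also had few counts in every sample. Olfr875 had 3, 17 and 38 counts in the Olfr2+ samples, against 20, 28 and 39 in the Olfr2- samples. Olfr432 had 6, 20 and 6 counts in the Olfr2+ samples and 22, 25 and 40 in the Olfr2- samples. Olfr1155 had 14, 5 and 6 counts in the Olfr2+ samples and 17, 5 and 17 in the Olfr2- samples. In CPM, the labels overlapped for Olfr875 and Olfr1155 and not for Olfr432. Without Olfr2+ sample 2 or 3, the log2 fold change of Olfr875, -0.43 (SE 1.26), was 0.26 or 0.12. Among the members with the highest mean level in Olfr2- samples, Olfr474 had 6, 1 and 1 counts in the Olfr2+ samples against 68, 47 and 30 in the Olfr2- samples, and Olfr53 had 1, 0 and 7 against 91, 21 and 34. Both were lower in every Olfr2+ sample than in any Olfr2- sample.

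Of 11 receptors listed because they have been described outside the nose, 4 were among the 100: Olfr78, Olfr433, Olfr90 and Olfr920. Olfr558 stood just outside, at rank 105. Olfr78 had 1, 0 and 9 counts in the Olfr2+ samples (0.0027, 0 and 0.133 CPM), against 22, 33 and 65 counts in the Olfr2- samples (0.722, 0.388 and 0.879 CPM). Every Olfr2- column held 6 or more counts of Olfr78, and among the Olfr2+ columns only 4B (9 counts) and 2B (1 count) held any. Its exons overlap those of Olfr560 in the annotation, so reads may not be told apart. Its log2 fold change was -3.21 (SE 1.47) over all columns and -2.28 (SE 1.41) in the shallower columns. Without Olfr2+ sample 4, which held 9 of the 10 Olfr2+ counts, it was -6.89 and passed edgeR's threshold.

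The other 3 followed a different pattern. Olfr433 had 455, 0 and 4 counts in the Olfr2+ samples, against 20, 29 and 11 in the Olfr2- samples. Olfr90 had 475, 3 and 2 counts in the Olfr2+ samples and 57, 5 and 15 in the Olfr2- samples. Olfr920 had 188, 396 and 5 counts in the Olfr2+ samples and 35, 3 and 5 in the Olfr2- samples. Each had its high Olfr2+ counts in 1 or 2 columns, as given above. Without Olfr2+ sample 2, the log2 fold change of Olfr433, 1.83 (SE 1.52), was -2.87 and that of Olfr90, 1.09 (SE 1.52), was -3.96. That of Olfr920, 2.10 (SE 1.43), stayed positive when any sample was left out (1.29 to 4.70), with the highest value without Olfr2- sample 1 and the lowest without Olfr2+ sample 3. Olfr921 and Olfr1034 reversed like Olfr433 and Olfr90, with log2 fold changes of 4.04 (SE 1.89) and 2.29 (SE 1.63) over all columns, of -2.07 for Olfr921 without Olfr2+ sample 4 and of -2.13 for Olfr1034 without Olfr2+ sample 3.

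Over the 100 receptors, most fold changes were negative and none passed the test of the fit across all genes. Because the ranking counted detection in the same columns, and 89 of the 100 receptors had their highest column among the Olfr2- columns, these counts describe the receptors and support nothing. edgeR's quasi-likelihood test with Benjamini-Hochberg adjustment over all 24362 genes tested (adjusted p under 0.05) included 76 of the receptors, of which 69 had a negative log2 fold change. It called 0 of the 76 higher and 0 lower, where it called 1.12% of all genes tested higher and 0.46% lower, and 36 of the 76 (47.4%) had an unadjusted p under 0.05, as did 32.1% of all genes tested. The smallest edgeR adjusted p was 0.0535, for Olfr1404, with 1, 1 and 1 counts in the Olfr2+ samples against 47, 19 and 27 in the Olfr2- samples. Its log2 fold change was -5.63 (SE 1.52). Olfr391-ps had 0, 4 and 0 counts in the Olfr2+ samples against 40, 38 and 28 in the Olfr2- samples, with no overlap.

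The median log2 fold change of the 76 receptors was -2.58, against 0.24 for all genes tested, a difference of -2.82. The 24 receptors outside the test reached the level of edgeR's filter in too few samples, and a receptor could pass it through the label in which it was high. With no filter, the median of all 100 was -2.55 and that of all 42769 features with a count -1.26. With library totals as the only scaling, the fit moved the median of all genes by -1.12 and left the receptors' median 2.73 below it. The normalisation factors lay between 0.485 and 0.868 for the Olfr2+ samples and between 1.337 and 1.66 for the Olfr2- samples.

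In the shallower columns, where 2 Olfr2+ samples face 3 of Olfr2-, the receptors' median fold change was closer to that of all genes. Their median log2 fold change was -0.81 over the 97 tested, against -0.43 for all 29989 genes tested, and with no filter it was -0.84 over all 100, against -0.66 for all features. edgeR called 0 receptors in either direction there, where it called 0% of all genes higher and 0% lower. At an unadjusted p under 0.05 in edgeR were 3127 genes (10.4%), with 8 of the 97 receptors (8.25%) among them. In these columns the median receptor was at 0.148 and 0.096 CPM in Olfr2+ samples 3 and 4, against 0.640, 0.229 and 0.379 CPM in the Olfr2- samples. The sums over the 100 receptors were 20.3 and 19.9 CPM in Olfr2+ samples 3 and 4, against 75.3, 115.3 and 40.9 CPM in the Olfr2- samples, so the labels did not overlap in either measure.

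**Figure D3:**
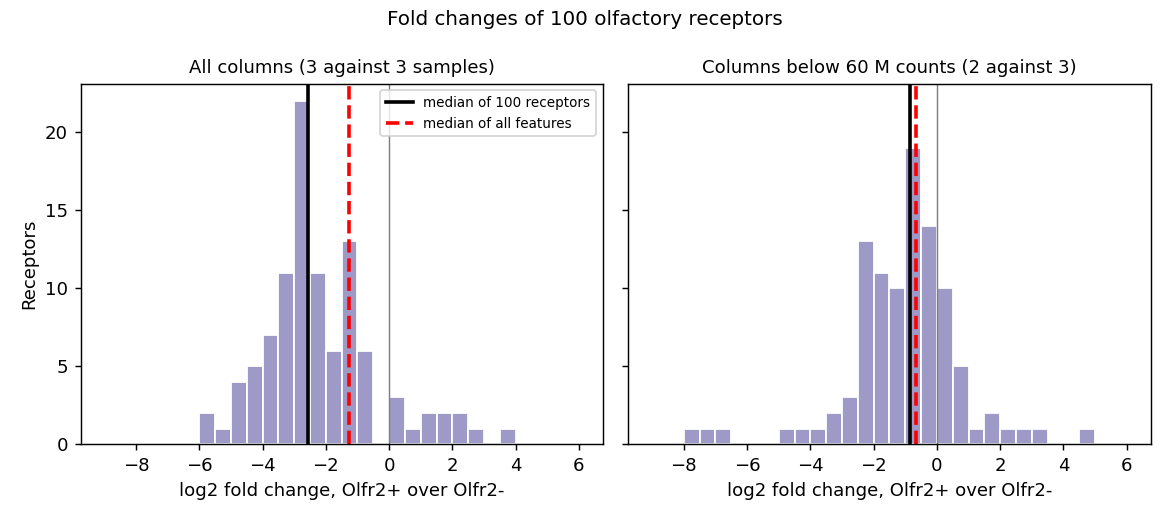
Histograms of the log2 fold change (Olfr2+ over Olfr2-) of the 100 receptors, fitted with no filter on low counts, over all columns (left) and over the columns below 60 M counts (right). The receptors' median (solid) is -2.55 against -1.26 for all features (dashed) on the left, and -0.84 against -0.66 on the right.

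Whether any receptor was called depended on the tool and the unit of replication. DESeq2 called 15 of 94 receptors lower (16.0%), against 9.37% of its genes tested. With library totals as the only scaling edgeR called 3 of 76 lower (3.95%), against 1.27% of genes, and with the 8 library names as units it called 6 of 90 (6.67%), against 2.62% of genes. With columns as units it called 1 of 23 lower (4.35%), against 1.2% of genes, and without Olfr2+ sample 4 it called 2 of 94 (2.13%), against 0.378% of genes. Library names and columns can repeat a numbered sample, so the fits with these units treat repeats as replicates. limma-voom called 0 of 76, with 40 of them (52.6%) at an unadjusted p under 0.05, as were 30.9% of all genes tested. The share of receptors under that limit was not above the share of all genes in every setting. With DESeq2 it was 33% against 40.2%, with columns as units 17.4% against 30.3%, and without Olfr2+ sample 4 44.7% against 44.7%. It was 63.2% against 31.9% with library totals, and 54.4% against 36.7% with library names. Olfr1404, Olfr391-ps, Olfr474 and Olfr53 were each called in 3 of these settings, and no setting called a receptor higher.

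Without a model, 56 of the 100 receptors had every Olfr2+ sample below every Olfr2- sample in CPM, and 0 had the reverse order. Among all 42769 features with a count the shares were 23.8% and 3.79%. Other receptor families gave 19.8% (196 of 990 other Olfr genes), 17.6% (31 of 176 Vmn1r genes), 58.1% (68 of 117 Vmn2r genes), 33.3% (5 of 15 Taar genes) and 15.2% (5 of 33 Tas2r genes) for the first order. A feature with few counts can hardly part the labels, and the 100 were chosen for having more, so the 56 are a description. In the shallower columns, 37 of the 100 receptors had the Olfr2+ samples below the Olfr2- samples, against 22.9% of all features.

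By median, the same order of the sets of columns appeared in the other chemosensory receptor families. Vmn1r and Vmn2r genes encode vomeronasal receptors, which bind pheromones, Taar genes trace amine receptors and Tas2r genes bitter taste receptors. Per kilobase of coding sequence the 100 receptors had median levels of 0.034 CPM in the deeper Olfr2+ columns, 0.216 CPM in the shallower Olfr2+ columns and 0.667 CPM in the Olfr2- columns. The 1025 other Olfr genes were at 0.00096, 0.043 and 0.188 CPM per kilobase in the same order of columns. The gap between the 100 and the rest follows from the ranking. The 205 Vmn1r genes were at 0.0014, 0.041 and 0.183 CPM per kilobase, the 122 Vmn2r genes at 0.0014, 0.041 and 0.161, the 15 Taar genes at 0.00075, 0.034 and 0.173, and the 35 Tas2r genes at 0.0046, 0.078 and 0.199. Single columns could depart from this order. The Tas2r genes were at 0.564 in Olfr2+ column 4A, above the highest Olfr2- column (0.266). The other Olfr genes were at 0.021 in Olfr2- column 3A, below the lowest shallower Olfr2+ column (0.028).

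Genes with no role in smell, taken as families of other tissues, showed this order of medians as well. The 56 Krtap genes, which encode keratin-associated proteins of hair, were at 0.0030, 0.088 and 0.296 CPM per coding kilobase in the deeper Olfr2+, the shallower Olfr2+ and the Olfr2- columns. The 42 Defb genes, which encode beta-defensins, were at 0.0039, 0.193 and 0.748. The 218 Olfr features annotated as pseudogenes had 0.155 CPM per feature in the Olfr2- columns, beside 0.175 CPM for the other protein-coding Olfr genes. The differences between families were not tested.

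**Figure D4:**
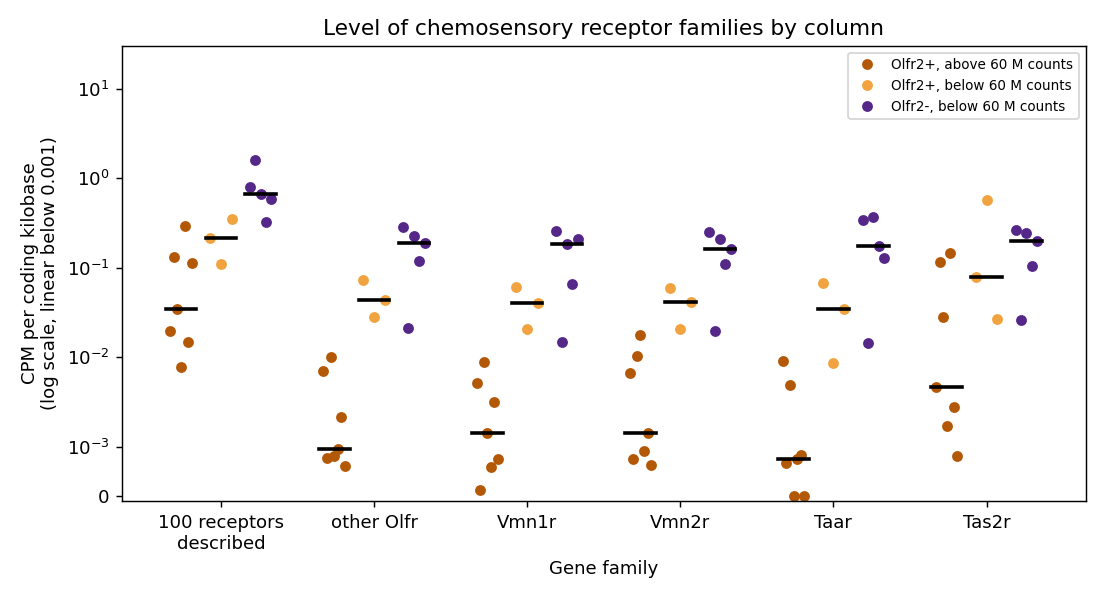
CPM per coding kilobase in each column (points) for the 100 receptors and 5 other sets of chemosensory receptor genes, with the median of each set of columns (bars), on an axis that is logarithmic above 0.001. In each family the deeper Olfr2+ columns have the lowest median and the Olfr2- columns the highest; the 100 receptors stand above the other Olfr genes because they were ranked by detection.

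The genes that olfactory sensory neurons use with their receptors did not move together. Of a list of 17, 16 were tested. edgeR called 0 of them higher and 1 lower in the libraries labelled Olfr2+, against 1.12% and 0.46% of all genes tested. The called gene was Rtp2, which helps to carry odorant receptors to the cell surface. It had 4, 3 and 0 counts in the Olfr2+ samples, against 100, 30 and 40 counts in the Olfr2- samples. The log2 fold change of -5.79 (SE 1.53) had an edgeR adjusted p of 0.0495. The call was lost when any of the 6 samples was left out (edgeR adjusted p between 0.0554 and 0.174) and in the shallower columns (-4.78, edgeR adjusted p = 0.411).

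Other genes of the list had values on both sides. Omp, the olfactory marker protein of mature olfactory neurons, had 25797, 360 and 794 counts in the Olfr2+ samples, against 10, 422 and 44 counts in the Olfr2- samples. The labels overlapped, and the log2 fold change of 5.23 (SE 1.73) had an edgeR adjusted p of 0.0787. Cnga2, a subunit of the olfactory channel, had 11, 2 and 13 counts in the Olfr2+ samples and 70, 61 and 7 in the Olfr2- samples. Adcy3, the olfactory cyclase, had 11452, 180 and 38 counts in the Olfr2+ samples and 124, 183 and 113 in the Olfr2- samples. Summed over the list, the level was 37.3 to 497.5 CPM in the deeper Olfr2+ columns, 18.07 to 71.3 CPM in the shallower Olfr2+ columns and 25.7 to 74.5 CPM in the Olfr2- columns. Of 6 genes known to act in receptor choice, such as Lhx2 and Ldb1, all were tested and had an edgeR adjusted p between 0.162 and 0.951.

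The 100 receptors differed little from the rest of the family in class and length. By Mor names, 10 were of class I, 86 of class II and 4 had no single class, so class I made up 10.4% of the named members and 11.6% of the other receptors. Class I members had a median of 0.045 CPM over the means of Olfr2+ samples and 0.478 CPM over those of Olfr2- samples, and class II members 0.051 and 0.482 CPM. The coding length had a median of 939 bases in both sets, from 918 to 1008 bases among the members. In the supplied annotation, 11 members overlapped another gene (11.2% of those matched, against 8.0% of the others), and for 9 the overlap lay in exons, among them Olfr432 with Olfr431-ps1 and Olfr1034 with Olfr1035-ps1. Counts of overlapping genes are uncertain, and a further 4 members carry a pseudogene symbol (Olfr709-ps1, Olfr329-ps, Olfr391-ps and Olfr175-ps1) although the table gives them as protein-coding.

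Their places in the genome differed more. Of the 98 members found in the annotation, 23 lay on chromosome 7 (23.5%, against 21.2% of the other receptors), 20 on chromosome 11 (20.4%, against 6.4%) and 12 on chromosome 2 (12.2%, against 25.8%). These shares were singled out after they were seen and were not tested. Receptor genes lie in clusters, and 96 of the 98 had another receptor next to them. For 28 the neighbour was itself a member, in 15 adjacent pairs that included Olfr987 with Olfr988, Olfr920 with Olfr921, Olfr432 with Olfr433, and the run of Olfr317, Olfr318, Olfr319 and Olfr320 on chromosome 11.

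Reads can be shared between receptors. Of the 98 members with an annotated transcript, 75 (76.5%) had an exact stretch of at least 50 bases in common with another Olfr transcript, 60 (61.2%) one of at least 75 bases and 48 (48.98%) one of at least 100. Among the other receptors the shares were 77.2%, 59.2% and 46.6%. The coding sequences of 2 members were identical at a median of 56.8% of positions, over 4753 pairs, and 4 pairs reached 90%. The closest pair, the neighbours Olfr988 and Olfr987 on chromosome 2, was 96.9% identical, with 29 of 927 bases differing. The first 90 coding bases of each are shown because a read from this stretch can be assigned only where it covers 1 of 4 differing bases, given in capitals (GENCODE transcripts, build GRCm38, 5′ to 3′ on the coding strand):
Olfr988: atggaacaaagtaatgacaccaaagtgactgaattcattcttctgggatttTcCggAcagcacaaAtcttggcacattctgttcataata
Olfr987: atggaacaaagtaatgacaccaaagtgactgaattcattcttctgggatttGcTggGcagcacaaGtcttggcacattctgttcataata

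The neighbours did not show the same pattern. Olfr988 had 8, 0 and 0 counts in the Olfr2+ samples, against 5, 20 and 24 counts in the Olfr2- samples. Olfr987 had 2, 14 and 12 counts in the Olfr2+ samples and 40, 2 and 10 counts in the Olfr2- samples. In CPM, Olfr988 did not overlap between the labels and Olfr987 did. The log2 fold change of Olfr988 was -3.21 (SE 1.41), and all its Olfr2+ counts were in sample 2. In the shallower columns, which held no Olfr2+ count of it, the value was -6.59 (SE 3.13). The log2 fold change of Olfr987, -1.66 (SE 1.38), was 0.74 without Olfr2- sample 1. How the authors' counting treated reads that match both is not given in the sources used here.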

How the data were processed

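The authors deposited raw, unnormalized counts, in whole numbers, for 47729 features and 15 columns, from Smart-Seq2 libraries that do not mark the strand. Per the submitters' processing notes, STAR 2.7.1, DRAGEN, DESeq2 1.34 and the build GRCm39 were used, and the role of each is not given in the sources used here. Without version, 99.12% of gene identifiers were in GENCODE vM21 (GRCm38), used for coding length, overlap, chromosome and sequence; no coordinates are given because the builds differ. All columns were mapped to samples.

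The columns that carry the same sample number were added up (3 samples per label), which is a reading of the titles that the labels do not state outright. CPM are counts per 1000000 of the total. Genes were tested with edgeR 4.0.16 (R 4.3.3; TMM scaling, expression filter by group, quasi-likelihood F test, threshold 0.05 after Benjamini-Hochberg adjustment), and each SE was derived from its F statistic. DESeq2 1.42.0, limma-voom (limma 3.58.1), other scalings, filters and units, a replicate block and fits that leave out a sample were tried as alternatives. The fit without a filter in the columns below 60 M counts, the sum over 93 receptors, and the sums with a sample left out, were added after seeing the data. The members, lists, tests and the 60 M division were chosen with earlier results of these data known. Simulated counts were used to test the fits.

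Genes named are the first 10 of the ranking, those at its end, the 3 with the highest mean CPM under each label, listed receptors described outside the nose and the most similar pair; others were chosen after their values were seen. Similarity was to be measured on proteins, and coding sequences were used instead. A 0 was bounded by 3 counts.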

Additional observations from a re-analysis of the deposited data

Results flagged for a closer look

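In 7 of 22 groups of columns, examined for 11 values of receptor level, a column stood apart from the others of its label. A chance rate of about 1 in 20 groups would assume independent, normally distributed values. These columns repeat samples, differ in depth and hold many low or absent counts. The 7 groups therefore cannot be compared with that rate, and an excess over chance was not tested. Olfr458 was at 4.93 CPM in Olfr2+ column 3A, far above the other Olfr2+ columns, and at 140.9 CPM in Olfr2- column 3A, far above the other Olfr2- columns. Olfr71 was at 16.5 CPM in Olfr2+ column 3A and Olfr433 at 4.69 CPM in Olfr2+ column 2B, each the highest Olfr2+ column by a wide gap. In Olfr2+ column 3D, Olfr56 was at 1.004 CPM, Olfr701 at 0.502 CPM and Olfr432 at 0.502 CPM, each above the other Olfr2+ columns.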

How the results depend on the processing

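Of 357 values of 22 named receptors under the alternatives, 312 kept their direction and their side of the threshold, 9 passed it newly and 36 reversed. All genes called higher numbered 273, but 86 with library totals, 4016 with DESeq2, 0 with limma-voom, 642 with no filter, 885 with library names and 649 with columns as units, and 6 to 973 without a sample. Those called lower numbered 112, but 310, 2695, 0, 239, 683 and 244 in the same order, 11 at a mean of at least 1 CPM, and 0 to 113 without a sample. The shallower columns alone and the depth set as a covariate both gave 0 higher and 0 lower, and the shallower columns with no filter gave 150 and 46. Receptors called lower numbered 0, but 3 with library totals, 15 with DESeq2, 6 with library names, 1 with columns as units, and 0 to 2 without a sample. Their median log2 fold change of -2.58 was -0.81 in the shallower columns (-0.84 with no filter), -0.98 with depth as a covariate, and 2.76 at a mean of at least 1 CPM, where only 3 receptors were left. Requiring 10 counts kept 65 of the 100 members.

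With the sample number as a replicate block, edgeR called 2 genes higher and 0 lower, and 0 receptors, with a receptor median of -2.14. Only numbers 3 and 4 exist under both labels, so this contrast rests on them, with little left to estimate spread. Samples of the same number had deviations correlated by 0.02 (sample 3) and -0.069 (sample 4). Olfr2+ sample 3 with Olfr2- sample 4 gave 0.049, and Olfr2+ sample 4 with Olfr2- sample 3 gave -0.138. So few pairs, of columns that differ in depth, cannot settle whether the number pairs the samples.

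Reversed log2 fold changes, whose cause was not tested, are given by setting. In the shallower columns they were 0.57 for Olfr56, 0.91 for Olfr875, -2.55 for Olfr433, -0.75 for Olfr1034, -2.57 for Olfr90 and 0.32 for Olfr987. With no filter there, the values of these 6 were 0.498, 0.859, -2.568, -0.806, -2.604 and 0.287, and Olfr920 gave -2.17. With depth as a covariate, the 7 gave 0.39, 0.81, -2.62, -0.90, -2.78, 0.13 and -2.31. The block gave -3.16 for Olfr433, -1.69 for Olfr90 and 1.55 for Olfr987, limma-voom 0.13 for Olfr458, -1.46 for Olfr433 and -0.4997 for Olfr90, and library totals -0.64 for Olfr90. Without a sample the ranges were -6.08 to 2.45 for Olfr458, -1.54 to 3.38 for Olfr71, -2.60 to 0.26 for Olfr875, -2.87 to 2.40 for Olfr433, -2.07 to 4.77 for Olfr921, -2.13 to 2.99 for Olfr1034, -3.96 to 3.11 for Olfr90 and -2.65 to 0.74 for Olfr987. From 3 counts of the total, a count of 0 cannot be told from a level of up to 0.100 CPM in the shallowest column. The 5 counts required for detection are 0.167 CPM there.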
